A study of Mus musculus with 86 samples.

Results

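Hepcidin, encoded by Hamp, and 5 genes that move, store or oxidise iron were followed in mouse hearts: Tfrc, Slc40a1, Slc11a2, Fth1 and Cp. The 6 genes were read by 24 of the 45101 probe sets of the array, and all 6 were among the 11962 of 18193 genes that passed the filter on dim signals. These members were selected on results from the same arrays, which included the lower Hamp signal after isoproterenol. Their values over the 8 groups are therefore given as a description, with no test.

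RNA of mouse hearts was hybridised to Affymetrix arrays, 86 in all, of which 85 entered the comparisons because 2 treated B2KO arrays were duplicates and were averaged. C57BL/6 and FVB are inbred, B6129SF2/J is a hybrid, and the labels do not expand the name of the last of the 4 lines, B2KO. Treated mice received isoproterenol, an agonist of beta-adrenergic receptors, by infusion for 14 days at 120 µg/g/day, and control mice of the same line received none. C57BL/6 gave 11 untreated and 10 treated arrays and B2KO 10 of each kind, while FVB and B6129SF2/J each gave 10 untreated and 12 treated ones. Ages are not given in the sources used here, and every B2KO array lay nearer to FVB than to the other backgrounds at strain marker probe sets. Per the study's description the infusion was followed by loss of systolic function in FVB and B2KO and of diastolic function in C57BL/6. The values are log2 intensities on arrays that the authors had scaled to a median of 1, so that 0 on the log2 scale is the median of the array. Levels are not compared between genes or probe sets, since each probe set has its own response.

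Hepcidin is a peptide hormone made mainly by the liver and, at lower levels, by other tissues such as heart muscle. It binds ferroportin, the exporter of iron encoded by Slc40a1, and leads to its degradation, so that cells keep more iron. Transcription of Hamp is driven by BMP ligands through SMAD proteins and by interleukin 6 through STAT3. Iron enters heart muscle cells chiefly with transferrin through the transferrin receptor (Tfrc), leaves the endosome through Slc11a2 (DMT1), and is stored in ferritin, of which Fth1 encodes the heavy chain. Ceruloplasmin (Cp) is a copper protein that oxidises iron as it leaves cells. The messages of Tfrc, Slc40a1, Fth1 and one form of Slc11a2 carry iron-responsive elements, through which iron changes their stability or translation.

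The mouse has a pair of hepcidin genes, and their start regions are shown because a probe set for one can read the other and because both known inputs to Hamp act here. Both genes lie on the minus strand of chromosome 7. The stretches below are the 160 bases upstream of each RefSeq start on build GRCm38.p6, chr7:30944030-30944189 for Hamp and chr7:30924182-30924341 for Hamp2, 5′ to 3′ on the gene's strand. Capitals mark GGCGCC, the letters of a BMP response element, and TTCTTGGAA, the letters of a STAT site, both searched on both strands.
Hamp: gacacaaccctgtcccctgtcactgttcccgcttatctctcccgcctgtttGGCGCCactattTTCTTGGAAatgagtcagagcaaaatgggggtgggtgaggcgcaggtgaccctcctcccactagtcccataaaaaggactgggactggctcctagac
Hamp2: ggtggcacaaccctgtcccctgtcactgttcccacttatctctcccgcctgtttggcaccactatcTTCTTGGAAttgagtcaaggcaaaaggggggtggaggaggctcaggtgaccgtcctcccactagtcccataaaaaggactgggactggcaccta
In Hamp the BMP letters began 109 bases and the STAT letters 97 bases before the start. In Hamp2 the STAT letters began 94 bases before the start, and the BMP letters were not in the window. Without gaps, 144 of 157 aligned bases (91.7%) were the same between the stretches. Of 32851 RefSeq promoter windows of 300 bases, 11.9% held GGCGCC and 0.417% held TTCTTGGAA. Of the 6 members, 4 were matched in the promoter table. Tfrc held GGCGCC in 1 of its windows, 89 bases before the start, and the windows of Fth1 and Cp held neither motif. These matches describe the letters only.

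Some arrays stood apart and are named beside the values they touch. Treated B2KO replicate 10 failed by its correlation with the other arrays (median 0.573). At the strain marker probe sets, treated FVB replicate 2 had a distance of 2.80 log2 units from the FVB profile and 0.99 from that of C57BL/6. Treated B2KO replicate 7 had distances of 1.50 from FVB and 1.57 from B6129SF2/J. RNA quality was in doubt in 5 arrays, whose Gapdh controls read over 2 log2 units more at the 3′ than at the 5′ end: treated replicate 7 and untreated replicate 8 of B6129SF2/J, and the untreated replicates 8 of B2KO, 11 of C57BL/6 and 10 of FVB. All 8 heart muscle markers lay above the array median in every group. Untreated B2KO replicate 1 was the only female by Xist and Eif2s3y.

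Hamp (chr7:30942368-30944029) was lower in treated hearts of all 4 lines. In FVB its log2 level had a lowest, median and highest value of 4.57, 5.43 and 6.05 without treatment and 2.84, 3.52 and 4.96 with it. The difference was −1.69 ± 0.29 (SE), a 3.23-fold lower signal, and 11 of 12 treated arrays lay below every untreated one. The treated array in doubt by strain, FVB replicate 2, read 4.56, in the upper part of its group, and the difference was −1.77 without the 3 arrays that failed or were in doubt by strain. Among the 11962 genes tested, 1.51% passed the limma threshold (adjusted p under 0.05) in FVB. Hamp was the only member past it, from which nothing is read, since this contrast chose the members. These are bulk samples, in which fewer cells of a type and less RNA per cell cannot be told apart.

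The groups of C57BL/6 did not overlap on the brightest Hamp probe set, though their nearest arrays were close. Untreated arrays read 3.64, 5.04 and 5.64 and treated arrays 1.78, 2.98 and 3.63 (lowest, median, highest). The difference of −2.03 ± 0.30 was a 4.09-fold lower signal, with all 10 treated arrays below all 11 untreated ones. In this line 19.5% of all genes passed, and so did 2 members, Hamp and Slc40a1. Under alternatives of processing Fth1 passed too in 6 of 14 and Cp in 2 of 14, the fit without the failed array among them. Slc11a2 passed in 1 of 13, and nothing is read from these counts.

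In B2KO, Hamp read 4.41, 5.40 and 7.35 in untreated and 2.13, 3.62 and 5.42 in treated arrays. The difference was −1.66 ± 0.30, a 3.17-fold lower signal, with 10 of 10 treated arrays below the untreated mean and 7 below every untreated array. The highest untreated value was replicate 8, in doubt by RNA, and the lowest treated value was the failed replicate 10. Without the 8 failed or doubtful arrays the difference was −1.32, and without the female mouse, which had the lowest untreated value, it was −1.78. Over all alternatives, these included, it ran from −1.78 to −1.19, and with single arrays left out from −1.84 to −1.45. In B2KO 1.8% of all genes passed, of which 10 were higher and 205 lower, and the median difference over all genes was −0.28. Hamp was the member that passed, in 13 of 14 alternatives, and the call ended when the line was fitted alone. Nothing is read from this call, since the members were chosen on these arrays.

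In B6129SF2/J the untreated level was the lowest of the 4 lines, with values of 2.67, 4.22 and 5.41, against 2.16, 3.33 and 3.96 with treatment. The difference of −0.95 ± 0.29 was a 1.93-fold lower signal. All 12 treated arrays lay below the untreated mean, but only 1 lay below every untreated array, so the groups overlapped over most of their range. The lowest untreated array, replicate 8, was in doubt by RNA, and the difference was −1.12 without the 8 arrays. In this line 4.54% of all genes passed, and Hamp was the only member among them. Under the alternatives Slc40a1 passed in 2 of 14 and Tfrc in 1 of 14. With 1 array of the line left out in turn, Hamp remained past the threshold in 13 of 22 fits, and the call also ended with no filter on dim genes. Here, too, nothing is read from the calls of members chosen on these arrays.

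**Figure D1:**
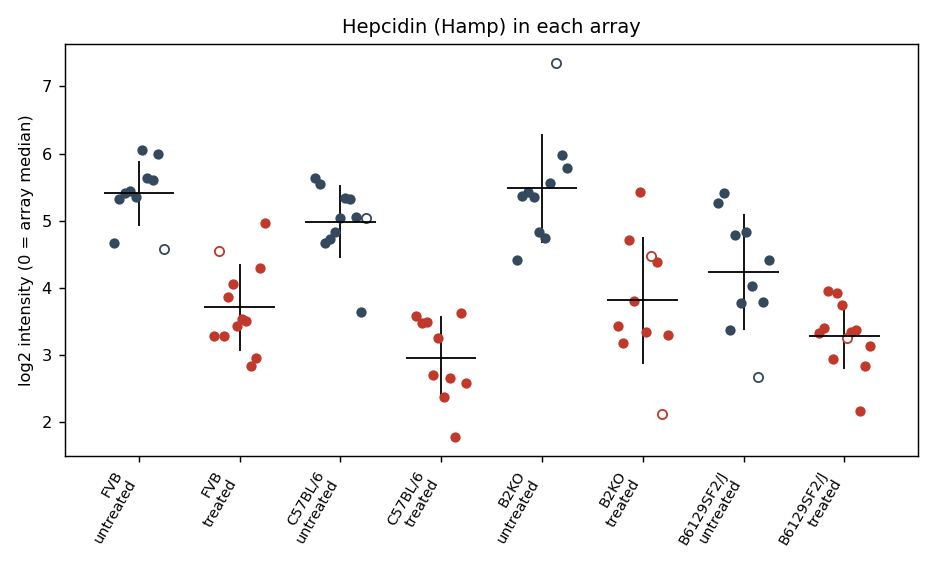
Log2 intensity of Hamp (0 is the array median) in each array of the 8 groups, dark blue for untreated and red for treated mice. Long bars are group means, thin lines 1 SD either way, and open circles the 8 arrays that failed or were in doubt. In C57BL/6 the treated arrays lie at or below 3.63 and the untreated ones at or above 3.64.

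By mean level the order of the 8 groups was untreated B2KO (5.48 ± 0.82, SD, n = 10), untreated FVB (5.41 ± 0.48, n = 10), untreated C57BL/6 (4.98 ± 0.55, n = 11) and untreated B6129SF2/J (4.23 ± 0.87, n = 10). The treated groups followed, B2KO (3.82 ± 0.95, n = 10), FVB (3.71 ± 0.65, n = 12), B6129SF2/J (3.28 ± 0.50, n = 12) and C57BL/6 (2.95 ± 0.62, n = 10). No step between neighbours in this order exceeded the larger of their SDs. The 4 untreated means nevertheless all lay above the 4 treated ones. Set against the difference in C57BL/6, whose arrays enter each of these values, the Hamp difference was higher by 0.34 ± 0.41 in FVB, 0.37 ± 0.42 in B2KO and 1.08 ± 0.41 in B6129SF2/J. The shares of all genes past the threshold in these 3 comparisons of effects were 1.7%, 10.5% and 5.66%. One member passed in each of the first 2, Slc40a1 and Fth1, and 0 members passed in the third, from which nothing is read. Under the alternatives Cp passed in the first comparison in 1 of 14, and in the third Hamp passed in 4 of 14 and Fth1 in 1 of 14.

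The second Hamp probe set followed the first with r = 0.960 over 85 arrays and gave −1.88 in C57BL/6, −1.53 in FVB, −1.44 in B2KO and −1.02 in B6129SF2/J. On it the C57BL/6 groups overlapped, with treated arrays up to 3.41 and untreated ones from 3.40. There 9 of 10 treated arrays lay below every untreated one. Hamp2, the neighbouring hepcidin gene, had a brighter probe set that read 1.84 in untreated and 0.59 in treated FVB, a difference of −1.24 ± 0.36 that did not pass (limma adjusted p = 0.0597). Its differences were −0.71 in B2KO, −0.66 in C57BL/6 and −0.42 in B6129SF2/J and did not pass either. The other Hamp2 probe set lay above the array median in 11 of 85 arrays. Given the likeness of the genes, signal of one read by the probes of the other cannot be told apart here.

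Liver cells are the main source of hepcidin, and their markers were dim in these hearts. Albumin (Alb) had group means between −1.44 and −0.38, below the array median in every group. Of 7 liver markers, between 0 and 4 had a group mean above the array median. Without treatment the median of their summed log2 level was 3.57 in FVB, 3.20 in B2KO, 2.51 in C57BL/6 and 2.16 in B6129SF2/J. With treatment it was 3.52, 3.29, 3.23 and 2.64. In C57BL/6 the sum ranged from 2.12 to 3.03 in untreated and from 2.76 to 3.88 in treated arrays. The highest untreated B2KO sum, 4.28, was that of replicate 8, which also had the highest Hamp value. Of the 5 bright enough to test, 2 rose in treated C57BL/6, where 19.5% of all genes passed. These were Apoa2, by 0.95 ± 0.31 (limma adjusted p = 0.02), and Ttr, by 0.92 ± 0.25 (0.00556). With limma 0 passed in the other lines, where 1 in FVB, 0 in B2KO and 2 in B6129SF2/J had an unadjusted p under 0.05. The part of liver cells in the Hamp values was not tested.

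The genes whose levels were most like Hamp over the 85 arrays were Frem2 (Pearson r = 0.745), Lgi1 (0.726), Serpinb6b (0.717), Slc36a2 (0.691) and Asb5 (0.672). Frem2 encodes a matrix protein of basement membranes, Lgi1 a secreted protein best known in neurons, and Asb5 a muscle protein of the ankyrin repeat and SOCS box family. The arrays share the treatment contrast, so that these values carry it. Within groups the r of the 5 genes lay between 0.397 and 0.543. The difference of Frem2 was −2.22 in C57BL/6, −1.74 in FVB, −1.45 in B6129SF2/J and −1.24 in B2KO.

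**Figure D2:**
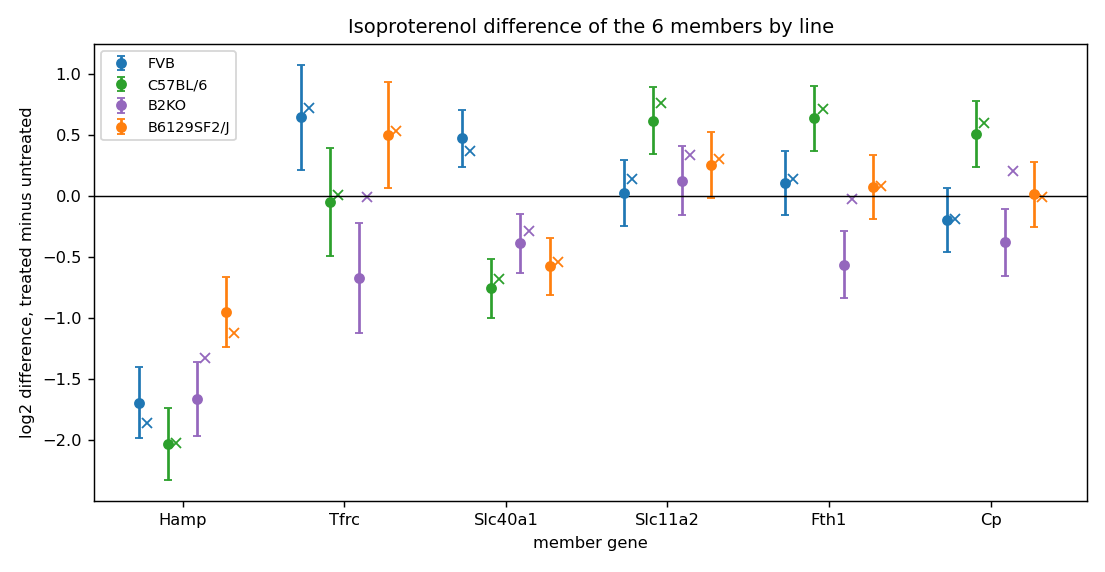
Log2 difference (treated minus untreated) of the probe set that stands for each of the 6 members, with its SE, coloured by line; crosses are the values without the 8 arrays that failed or were in doubt. Hamp lies between −2.03 and −0.95, and for Fth1 and Tfrc in B2KO the cross lies near 0.

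Slc40a1 (chr1:45908070-45926532), which encodes ferroportin, differed between untreated lines. Untreated FVB arrays read 1.70, 2.05 and 3.22 (lowest, median, highest) and untreated C57BL/6 arrays 2.77, 3.81 and 4.72, a difference of −1.71 ± 0.24 or a 3.26-fold lower signal in FVB. The ranges overlapped, with 8 of 10 FVB arrays below every C57BL/6 array. Untreated B2KO, at 2.52 ± 0.84 (SD, n = 10), lay near FVB, and untreated B6129SF2/J, at 4.15 ± 0.46 (n = 10), near C57BL/6. In untreated mice 12.2% of all genes passed between FVB and C57BL/6, and Slc40a1 was the only member among them. Between B2KO and FVB 0.0167% of genes passed, and between B6129SF2/J and C57BL/6 7.67%, with 0 members in either. Under the alternatives Cp passed between FVB and C57BL/6 in 6 of 14 and Slc11a2 in 2 of 13. Between B6129SF2/J and C57BL/6 Fth1 then passed in 5 of 14, Hamp in 3 and Cp in 2, and between B2KO and FVB Cp in 1. Nothing is read from these calls of members. A strain variant under a probe can lower its signal at an equal amount of RNA, and this was not tested.

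With treatment, Slc40a1 in C57BL/6 read 2.62, 3.20 and 3.77, a difference of −0.76 ± 0.24, and all 10 treated arrays lay below the untreated mean although 2 lay below every untreated array. In B6129SF2/J it read 3.18, 4.22 and 4.81 without and 3.35, 3.48 and 3.99 with treatment, a difference of −0.58 ± 0.23. All 12 treated arrays lay below the untreated mean of that line, inside the untreated range. In FVB the difference had the other sign, 0.47 ± 0.23, with treated arrays at 1.66, 2.75 and 3.74. The highest of these was replicate 2, the array near the C57BL/6 background, and the difference was 0.38 without the 3 arrays.

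In B2KO the Slc40a1 difference was −0.39 ± 0.24, with treated arrays at 1.20, 2.06 and 2.98 and untreated ones at 2.01, 2.28 and 4.83. The untreated maximum was replicate 8, in doubt by RNA, and without the 8 arrays the difference was −0.28. It was −0.06 with arrays centred on the median of their genes and 0.02 after quantile normalization, so its sign depended on the scaling. On the second probe set the same untreated replicate 8 was not the highest but the lowest of its group, at 0.10, beside replicate 2 at 0.11. That probe set gave differences of −0.85 in C57BL/6, −0.63 in B2KO, −0.56 in B6129SF2/J and 0.65 in FVB. The FVB difference exceeded that of C57BL/6 by 1.23 ± 0.33 on the first probe set and by 1.51 ± 0.42 on the second. On the first it was past the threshold in 35 of 43 fits without 1 array, and treated FVB replicate 2 was among the 8 arrays whose absence ended the call. It also ended with no filter on dim genes and with the stricter one. As Slc40a1 is a member chosen on these arrays, nothing is read from the call.

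**Figure D3:**
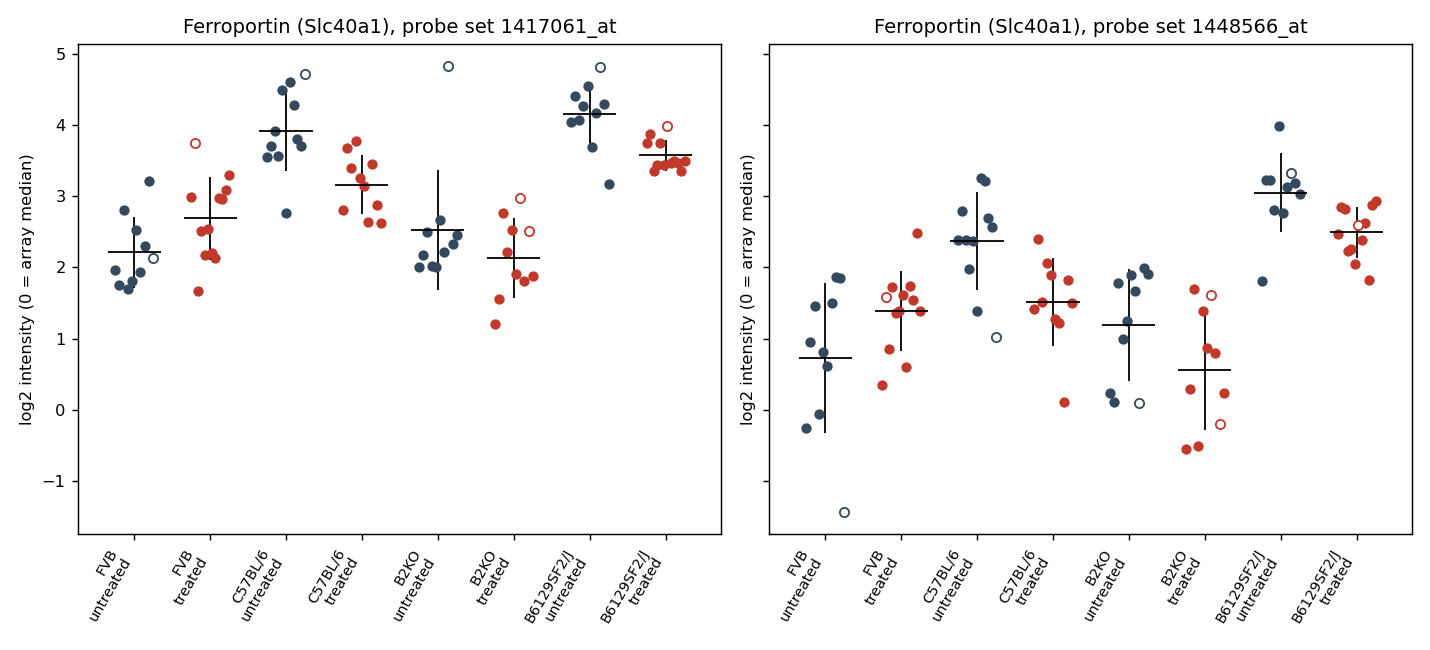
Log2 intensity (0 is the array median) of both Slc40a1 probe sets in each array, dark blue for untreated and red for treated mice, with group mean, 1 SD either way and open circles for arrays that failed or were in doubt. On the left, untreated B2KO replicate 8 lies at 4.83 and on the right the same array at 0.10.

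The genes most like Slc40a1 over 85 arrays were Yae1d1 (r = 0.829), Pfn2 (0.815) and Hif1a (0.813), the last of which encodes the oxygen-sensitive subunit of a hypoxia factor. Hif1a was itself lower in untreated FVB than in untreated C57BL/6, by 0.80 on the log2 scale (SE 0.20, limma adjusted p = 0.00347, lower in 10 of 10 arrays). Macrophages, which recycle iron through ferroportin, were read by 9 tested markers. With limma 0 of 9 passed between treated and untreated mice of any line, and at an unadjusted p under 0.05 there were 4 in B6129SF2/J, 3 in C57BL/6, 1 in FVB and 0 in B2KO. Between untreated lines 1 of 9 was lower in FVB than in C57BL/6, a share near the 12.2% of all genes that passed. This was Adgre1, lower by 1.09 on the log2 scale (limma adjusted p = 1.89e-05, 10 of 10 arrays). In untreated B6129SF2/J 2 of 9 were lower than in C57BL/6, beside 7.67% of all genes, and the Slc40a1 means there were 4.15 and 3.92. The summed log2 level of the markers ran from 7.07 to 9.00 in FVB, from 8.04 to 9.47 in C57BL/6 and from 7.93 to 8.58 in B6129SF2/J. Their part in the Slc40a1 values was not tested.

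Tfrc (chr16:32608896-32632794), the receptor that takes up transferrin iron, had overlapping groups in every line. Treated minus untreated was 0.64 ± 0.43 in FVB, 0.50 ± 0.43 in B6129SF2/J, −0.05 ± 0.44 in C57BL/6 and −0.67 ± 0.45 in B2KO. In C57BL/6 the arrays read 6.48, 7.25 and 7.78 without and 6.53, 7.23 and 7.60 with treatment, a close match of both ranges. In FVB the untreated arrays spread from 4.39 to 8.44 (median 6.70) and the treated ones from 4.83 to 8.78 (median 7.59). The lowest treated FVB array was replicate 2, in doubt by strain, and the difference was 0.86 without the 3 arrays. In B2KO, treated arrays read 1.42, 7.41 and 8.53 and untreated ones 6.22, 7.46 and 8.60. The value of 1.42 was the failed array, without which the difference was −0.07, and without the 3 arrays it was 0.03. In B6129SF2/J the arrays read 5.94, 7.36 and 8.09 without and 6.46, 7.82 and 8.36 with treatment, and 4 of 12 treated arrays lay above every untreated one.

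The other 5 Tfrc probe sets, 3 of them controls for the 5′, middle and 3′ parts of the message, gave differences of 0.55 to 1.10 in FVB and 0.69 to 1.36 in B6129SF2/J. In C57BL/6 they lay between 0.04 and 0.49 and in B2KO between −0.38 and −0.12. With all arrays, the sign was the same on all 6 probe sets in FVB, B6129SF2/J and B2KO, and differed in C57BL/6. The B2KO values include the failed array, the lowest treated one on the next brightest probe set (−0.49) and the 3′ control (0.02). There the treated B2KO median was above the untreated one, at 3.70 against 3.62 and 2.93 against 2.84. On the other 3 of these 5 probe sets it was below. Their B2KO sign without the failed array was not tested. The gap between the 3′ and 5′ controls, which widens as RNA breaks down, averaged 1.55 and 1.80 log2 units in untreated and treated FVB, 1.87 and 2.41 in B6129SF2/J, 1.68 and 1.85 in B2KO and 2.18 and 1.82 in C57BL/6. It was thus wider with treatment in 3 lines, B2KO included, and narrower in C57BL/6, and its part in the Tfrc values was not tested. Dividing cells carry much transferrin receptor, and of 5 cell division markers 5 rose in FVB, 5 in C57BL/6, 1 in B6129SF2/J and 0 in B2KO. The shares of all genes past the threshold in these lines were 1.51%, 19.5%, 4.54% and 1.8%. The part of dividing cells was not tested either. The gene most like Tfrc was Alas1 (r = 0.837), which encodes the first enzyme of haem synthesis, with 0.725 when the doubtful arrays were left out.

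**Figure D4:**
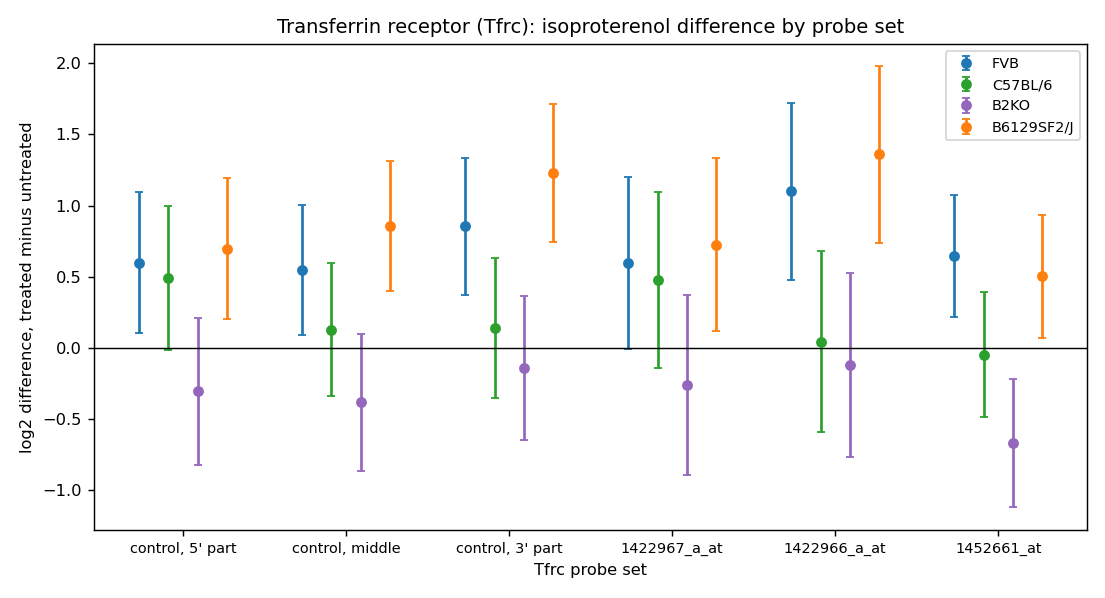
Log2 difference (treated minus untreated) with its SE for the 6 Tfrc probe sets, coloured by line. All values lie above 0 in FVB and B6129SF2/J and below 0 in B2KO, where the failed array is included, and the brightest probe set gives −0.05 in C57BL/6.

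Slc11a2 (chr15:100387898-100424209), the transporter that releases iron from endosomes, differed most in C57BL/6 on its brightest probe set only. There untreated arrays read −0.18, 1.50 and 2.73 and treated ones 0.93, 1.84 and 2.69, a difference of 0.62 ± 0.28 with 9 of 10 treated arrays above the untreated mean. The differences were 0.02 ± 0.27 in FVB, 0.12 ± 0.28 in B2KO and 0.26 ± 0.27 in B6129SF2/J. In each line the ranges overlapped. The next probe sets gave 0.34 and 0.12 in C57BL/6, 0.36 and 0.33 in B6129SF2/J, 0.18 and 0.34 in FVB and −0.16 and 0.03 in B2KO. On neither of them did C57BL/6 have the largest difference. The last probe set lay above the array median in 0 of 85 arrays. The genes most like Slc11a2 were Metrnl (r = 0.715), Tubb6 (0.707) and Hk1 (0.682).

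Fth1 (chr19:9980600-9985111), the heavy chain of ferritin, was bright in every group, with means from 9.56 to 10.39. In C57BL/6 it read 9.03, 9.66 and 10.66 without and 10.02, 10.41 and 10.64 with treatment, a difference of 0.64 ± 0.27, and all 10 treated arrays lay above the untreated mean within the untreated range. The difference was 0.11 ± 0.26 in FVB and 0.07 ± 0.26 in B6129SF2/J. In B2KO it was −0.56 ± 0.27, but −0.10 without the failed array, which read 5.44 against 9.90 at the median of its group. The B2KO effect minus that of C57BL/6 was −1.20 ± 0.38, and it no longer passed the threshold without the failed array. The second probe set gave 0.83 in C57BL/6, 0.22 in FVB, −0.57 in B2KO and −0.33 in B6129SF2/J, so the sign in the last line depended on the probe set. The genes most like Fth1 were Atp5j2 (r = 0.945, and 0.864 without the doubtful arrays), Cox4i1 (0.940 and 0.868) and Tpi1 (0.939 and 0.844), of which the first encodes a subunit of ATP synthase and the second one of cytochrome c oxidase.

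Cp (chr3:19956933-20009750), which encodes ceruloplasmin, had 8 probe sets that disagreed. The brightest gave 0.51 ± 0.27 in C57BL/6, 0.01 ± 0.26 in B6129SF2/J, −0.20 ± 0.26 in FVB and −0.38 ± 0.28 in B2KO. In B6129SF2/J the 8 probe sets ran from −1.06 to 0.96 and in C57BL/6 from −0.43 to 0.52, so no direction is given there. In B2KO the failed array read 0.92 against a median of 4.74, and without it the difference was 0.01. On the brightest probe set untreated FVB arrays read 4.65, 5.10 and 6.07 and untreated C57BL/6 arrays 3.54, 4.43 and 5.49. This was a difference of 0.62 ± 0.27, with 10 of 10 FVB arrays above the C57BL/6 mean. Over the 8 probe sets the difference between these untreated lines ran from −0.44 to 0.76, so no direction is given for it either. The genes most like Cp were Trmt112 (r = 0.857, and 0.703 without the doubtful arrays), Sec11a (0.839 and 0.637) and Ube2k (0.838 and 0.646).

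Genes around the members were taken from 6 lists of iron biology with 108 genes besides the members, of which 101 were measured and 93 tested. These lists, too, were chosen with earlier results of these data known. With limma adjusted p under 0.05 over all genes, 13 of the 93 rose and 6 fell in C57BL/6, where 19.5% of all genes passed, and the median difference was 0.08 for the 93 and 0.09 for all genes. In B6129SF2/J 6 rose and 0 fell (4.54% of all genes; medians −0.02 and −0.02), and in FVB 2 rose and 0 fell (1.51%; medians −0.01 and −0.00). In B2KO 0 rose and 3 fell (1.8%; medians −0.34 and −0.28). The 19 in C57BL/6 are a share near that of all genes. Without the failed array the counts were 0 in B2KO, 5 in FVB, 24 in C57BL/6 and 9 in B6129SF2/J. Without treated B2KO replicate 5 the count in B2KO was 8, without treated replicates 3 or 6 it was 6, and without untreated replicates 2 or 9 it was 1. Without treated FVB replicate 3 the count in FVB was 4. Shares of all genes in these fits are not given here, so the changes are not read as particular to iron genes.

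The list on hepcidin control holds ligands, receptors and targets of the BMP pathway and of interleukin 6. In C57BL/6 5 of 31 tested genes rose and 1 fell, a share near the 19.5% of all genes that passed in this line. Stat3, the factor that carries the interleukin 6 signal, rose by 1.91 ± 0.37 (limma adjusted p = 8.85e-05), with each of the 10 treated arrays higher than the mean of the untreated ones. The BMP targets Id1 and Id3 rose by 1.49 ± 0.44 (adjusted p = 0.01) and 1.20 ± 0.32 (adjusted p = 0.0051), each in 10 of 10 arrays, and Cebpa, a factor that binds the Hamp promoter, rose by 1.28 ± 0.31. Smad6, an inhibitor of BMP signals, rose by 1.00 ± 0.31 (adjusted p = 0.0167), a call lost after quantile normalization (adjusted p = 0.0809). Neo1, which encodes neogenin, a partner of hemojuvelin, fell by 0.79 on the log2 scale in 10 of 10 arrays (adjusted p = 0.00685).

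In B6129SF2/J 3 of the 31 rose: Id2 by 1.17 ± 0.25 (adjusted p = 0.00119), Socs3, the feedback inhibitor of STAT3 signals, by 0.96 ± 0.24 (0.00722) and Smad7, the inhibitor of BMP and TGF-beta signals, by 0.80 ± 0.22 (0.0198), each in 12 of 12 arrays by limma. The Smad7 call ended without untreated replicate 10 (adjusted p = 0.0509). In B2KO Hjv, which encodes the BMP co-receptor hemojuvelin, fell by 1.02 on the log2 scale (limma adjusted p = 0.0274, 10 of 10 arrays), but without the failed array the difference was −0.71 with an adjusted p of 0.159. It also did not pass without untreated replicate 2 or 9. Its differences of −0.61 in B6129SF2/J, −0.42 in FVB and 0.38 in C57BL/6 did not pass, nor did that of Id1 in B6129SF2/J (0.81). In FVB 0 of 31 passed by limma, and 3 had an unadjusted p under 0.05.

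Of the genes named in every case, Bmp6, the BMP ligand that answers to iron in the liver, had differences of 0.28 in B6129SF2/J, 0.22 in FVB, 0.05 in C57BL/6 and −0.34 in B2KO, none of which passed. Tfr2, the second transferrin receptor, lay under the filter in every group. Of the acute phase genes, which share the STAT3 input, Serpina3n rose by 2.24 ± 0.46 in C57BL/6 and by 2.42 ± 0.46 in B6129SF2/J, and Osmr by 0.98 ± 0.23 in B6129SF2/J. Of 5 tested acute phase genes, 1 passed in C57BL/6, 2 in B6129SF2/J and 0 in FVB and B2KO, where 1 and 3 had an unadjusted p under 0.05. Of all genes, 19.5% passed in C57BL/6, 4.54% in B6129SF2/J, 1.51% in FVB and 1.8% in B2KO. The part of the acute phase genes in the Stat3 and Socs3 values was not tested.

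Among genes of iron entry, 3 of 14 passed in C57BL/6 by limma, a share near the 19.5% of all genes that passed in this line. In the other lines 0 passed, beside 1.51% of all genes in FVB, 1.8% in B2KO and 4.54% in B6129SF2/J. There 2 in FVB, 5 in B2KO and 1 in B6129SF2/J had an unadjusted p under 0.05. Lcn2, lipocalin 2, which binds siderophores with iron, rose by 1.64 ± 0.51 in C57BL/6 (limma adjusted p = 0.0155, 7 of 10 arrays), from an untreated mean of −0.61 that lay under the array median. Lrp1, the receptor for haem bound to hemopexin, rose by 1.00 ± 0.34 (adjusted p = 0.0278, 10 of 10). Cacna1d, a calcium channel subunit through which iron can also pass, fell by 0.99 on the log2 scale (adjusted p = 0.00183, 10 of 10). The Lrp1 call ended without untreated replicates 1 or 6 or treated replicate 3 (adjusted p up to 0.0575), and with probe sets averaged (0.0868). Of the 5 tested genes of storage and delivery 0 passed in any line by limma, and 2 in C57BL/6, 1 in B2KO and 0 in FVB and B6129SF2/J had an unadjusted p under 0.05. Ncoa4, which carries ferritin to its breakdown, had differences of 0.50 in FVB, −0.13 in B6129SF2/J, −0.29 in B2KO and −0.44 in C57BL/6, none of which passed. The light chain of ferritin, Ftl1, was not analysed here as a single gene.

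In the list on sensing of iron and oxygen, Egln3 rose in 3 lines. This gene encodes a prolyl hydroxylase that needs iron and oxygen and marks hypoxia factors for breakdown. In FVB it rose from 5.55 to 6.65 (difference 1.10 ± 0.27, limma adjusted p = 0.0148, 11 of 12 arrays), in C57BL/6 from 4.50 to 6.29 (1.79 ± 0.28, 2.18e-06, 10 of 10) and in B6129SF2/J from 4.61 to 6.32 (1.71 ± 0.27, 5.53e-06, 12 of 12). The FVB call was lost when the line was fitted alone (adjusted p = 0.0875). In B2KO the difference was 0.15 ± 0.28, from an untreated mean of 6.28. Fbxl5, the iron sensor that marks IRP2 for breakdown, fell by 1.04 on the log2 scale in C57BL/6 (adjusted p = 0.00111, 10 of 10). Aco1, which encodes IRP1, fell by 0.72 in C57BL/6 (adjusted p = 0.0473, 10 of 10), a call that held in 5 of 21 fits without 1 array (adjusted p up to 0.0956), and Ireb2, which encodes IRP2, passed in no line, with differences from −0.42 to 0.22. Zfp36 and Egln2 rose by 0.88 ± 0.32 and 0.71 ± 0.26 in C57BL/6 (7 and 10 of 10 arrays) and held in 11 and 9 of 21 such fits.

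Slc25a37, mitoferrin 1, which brings iron into mitochondria, rose in FVB by 2.04 ± 0.44 (limma adjusted p = 0.00374, 11 of 12 arrays) and in C57BL/6 by 1.34 ± 0.45 (adjusted p = 0.0273, 10 of 10), where the call ended without treated replicate 1 (adjusted p = 0.0519). Its differences of 1.08 ± 0.44 in B6129SF2/J and 0.14 ± 0.46 in B2KO did not pass. Red blood cell precursors express this gene strongly. Of 9 erythroid markers 5 were measured, 2 of them, both tested, above the array median in every group. In FVB, where 1.51% of all genes passed, Alas2 rose by 1.96 ± 0.52 and Slc4a1 by 1.46 ± 0.39. In C57BL/6, where 19.5% passed, Alas2 rose by 1.50 ± 0.53 and Slc4a1 did not pass. In B6129SF2/J and B2KO 0 of 2 passed. The summed log2 level of the erythroid markers ran from 3.03 to 6.90 in untreated and from 3.55 to 8.17 in treated FVB, and from 4.22 to 7.05 and 5.92 to 7.58 in C57BL/6. Their part in the rise of Slc25a37 was not tested.

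Cisd2 encodes an iron-sulphur protein of organelle membranes, and Hscb a chaperone that helps to pass clusters on. In C57BL/6 each of them fell by 0.78 on the log2 scale in 10 of 10 arrays (limma adjusted p = 0.0066 and 0.029). The Cisd2 call did not survive averaging over its probe sets (adjusted p = 0.541), and that of Hscb without untreated replicate 11 or treated replicate 5. In B2KO Nfs1, the cysteine desulphurase, fell by 0.99 (adjusted p = 0.0346, 10 of 10) and Slc25a28, mitoferrin 2, by 0.97 (0.0254, 9 of 10), and without the failed array the differences were −0.58 and −0.65 with adjusted p of 0.191 and 0.147. Untreated replicate 8 also ended both calls when left out.

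Hmox1, haem oxygenase 1, which frees iron from haem, rose by 1.40 ± 0.31 in C57BL/6 (limma adjusted p = 0.000663, 10 of 10) and by 1.34 ± 0.31 in B6129SF2/J (adjusted p = 0.00275, 12 of 12). In FVB and B2KO its difference was 0.75 in each, with adjusted p of 0.266 and 0.147. Of the enzymes that make haem, Ppox rose by 0.69 ± 0.25 in C57BL/6 (adjusted p = 0.0372) and Cpox by 0.95 ± 0.29 in B6129SF2/J (adjusted p = 0.0363), calls that held in 12 of 21 and 12 of 22 fits without 1 array. The Ppox call also ended after quantile normalization and with arrays centred on their genes (adjusted p up to 0.128), and the Cpox call with probe sets averaged (0.254) and with no filter. With limma 0 of 17 haem genes passed in FVB and B2KO, where 2 and 5 had an unadjusted p under 0.05.

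**Figure D5:**
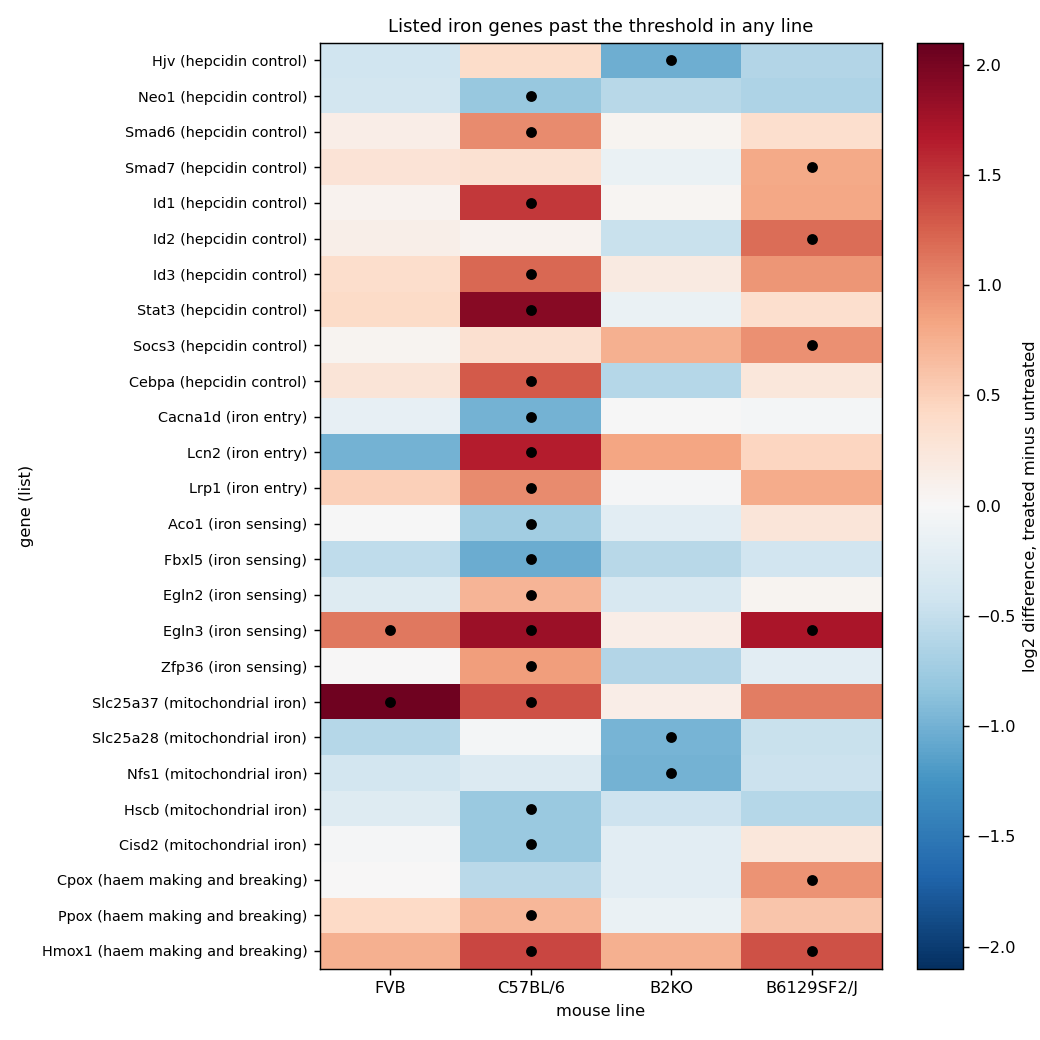
Log2 difference (treated minus untreated, colour scale) of the listed iron genes that passed limma adjusted p under 0.05 in at least 1 line, by line, with dots where the gene passed. The B2KO column has 3 dots, all below 0, at Hjv, Slc25a28 and Nfs1.

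The difference between the effects of 2 lines was tested against C57BL/6, which enters all 3 comparisons. B2KO minus C57BL/6 gave 7 of 93 genes lower and 0 higher, beside 10.5% of all genes and a median of −0.50 for the 93 and −0.41 for all. Stat3 (−2.06 ± 0.53, limma adjusted p = 0.01), Cebpa (−1.89 ± 0.45, 0.00569), Egln3 (−1.65 ± 0.40, 0.00693) and Hjv (−1.40 ± 0.37, 0.0123) still passed without the failed array, with adjusted p of 0.0226, 0.0128, 0.0109 and 0.0279. With the lines fitted alone Stat3 (0.0932) and Hjv (0.0823) did not pass. Egln1, App and Zfp36 were the others, at −1.50, −1.48 and −1.49, and without that array App was at −0.80, Egln1 at −0.88 and Zfp36 at −1.18, the last no longer past the threshold (adjusted p = 0.0771). Without the 3 arrays App (0.0837) and Egln1 (0.0524) did not pass either, and with the lines fitted alone none of these 3 genes did. The count was 18 without untreated B2KO replicate 8, 14 without treated B2KO replicate 6, 12 without untreated C57BL/6 replicate 11, 11 without untreated C57BL/6 replicate 5 or treated B2KO replicate 5, and 4 without treated C57BL/6 replicate 4. In the same comparison 3 of 8 heart muscle markers and 2 of 5 cell division markers, Top2a (−2.28) and Cdk1 (−1.73), were lower, and their part was not tested. FVB minus C57BL/6 gave 1 gene, Lcn2 at −2.64 ± 0.72 (adjusted p = 0.037), which passed in 31 of 43 fits without 1 array. B6129SF2/J minus C57BL/6 gave Cpox at 1.51 ± 0.41 (0.0154) and Cisd2 at 1.01 ± 0.30 (0.032) by limma, and both calls were lost when probe sets were averaged. With single arrays left out the counts ran from 0 to 2 for FVB and from 1 to 5 for B6129SF2/J, and 25 of 43 and 8 of 43 arrays moved them by over 1.5 times. Shares of all genes in the fits without an array are not given here.

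In untreated mice 15 of the 93 genes differed between FVB and C57BL/6, 7 higher and 8 lower in FVB, where 12.2% of all genes passed. Lcn2 was higher by 2.35 ± 0.51 (limma adjusted p = 0.000536), Alad, an enzyme of haem synthesis, by 1.64 ± 0.34 (0.000235), Atoh8 by 1.50 ± 0.32 (0.000433) and Stat3 by 1.44 ± 0.37 (0.0038), each in 10 of 10 FVB arrays. Slc39a8, a carrier of zinc and iron, was lower by 1.24 on the log2 scale (0.000149, 9 of 10), Hfe, a regulator of hepcidin, by 1.12 (0.00185, 10 of 10), Aco1 by 1.05 (0.0044, 10 of 10) and Cisd2 by 0.96 (0.000814, 10 of 10) by limma. Averaging probe sets ended the calls of Slc39a8, Aco1 and Cisd2. The acute phase gene Serpina3n was higher in untreated FVB too, by 2.89 ± 0.46 (adjusted p = 1.57e-06), the only one of 5 that passed, and its part in the Stat3 and Lcn2 values was not tested.

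In B6129SF2/J against C57BL/6, 1 of 93 was higher and 4 were lower without treatment, where 7.67% of all genes passed. Stat3 was higher by 1.22 ± 0.37 (limma adjusted p = 0.0251), and Cpox (−1.30 ± 0.29, 0.00182), Aco1 (−1.05 ± 0.27, 0.00753), Creb3l3 (−1.04 ± 0.29, 0.0146) and Id2 (−0.89 ± 0.26, 0.0181) were lower, each in 10 of 10 arrays. All of these but Creb3l3 were lost with probe sets averaged. Of the heart muscle markers 5 of 8 were higher in this comparison. Between untreated B2KO and FVB 0 of 93 passed by limma, and 5 had an unadjusted p under 0.05. Hamp differed by 0.07 ± 0.30 between these lines and by 0.42 ± 0.30 between FVB and C57BL/6, while in B6129SF2/J it was lower than in C57BL/6 by 0.75 on the log2 scale (SE 0.30), with 8 of 10 arrays below the C57BL/6 mean.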

How the data were processed

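Heart RNA of 86 samples was read on Affymetrix arrays, and the deposited values are linear intensities that the authors computed with GCRMA (version not stated), per the submitters' processing notes. Every deposited array has a median of 1. Here log2 of the intensity was taken. The gene table used the 34945 of 45101 probe sets that the platform ties to a single symbol, which leaves out 9160 unnamed ones, 932 shared between genes and 64 controls. The brightest probe set stood for each of 18193 genes, and 11962 genes with a group mean above log2 0 were tested. A linear model over the 8 groups was fitted with limma 3.58.1 in R 4.3.3, two-sided, with Benjamini-Hochberg adjustment over all tested genes and a threshold of 0.05. The script was tested on simulated data. The members and lists were chosen with earlier results of these data known. Listed genes were named where they passed the threshold, up to 4 each way between lines, with a few key genes always given. Treated B2KO replicates 4 and 9 held identical values and were counted as 1 sample. The labels describe separate mice, fewer for some lines than there are arrays, so p-values measure the spread between these arrays. The median SE was between 0.25 and 0.26 log2 units, and the number of arrays limits the precision. Alternatives covered scaling, filters, probe sets, array weights, moderation, the fitted lines, left-out arrays and replicate numbers as a block. Same-numbered arrays did not deviate together (median correlations between −0.03 and 0.04), so the numbers were not taken as pairs. Symbols were updated by gene number (99.4% matched), and positions and promoters are RefSeq's on GRCm38.p6.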

Additional observations from a re-analysis of the deposited data

Results flagged for a closer look

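Within groups of up to 10 arrays, 7 values of members lay apart from the rest of their group by Dixon's ratio, which chance exceeds in about 1 in 20 groups. The failed array, treated B2KO replicate 10, had the lowest value of Tfrc (1.42), Fth1 (5.44) and Cp (0.92). Untreated B2KO replicate 8, in doubt by RNA, had the highest value of Hamp (7.35), Slc40a1 (4.83) and Cp (6.51). Untreated B6129SF2/J replicate 7, in no doubt, had the lowest value of Slc11a2 (0.037).

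The isoproterenol effect of 10 listed genes differed from that in C57BL/6 by the test of the difference itself. In FVB this was Lcn2 (−2.64). In B2KO these were Stat3 (−2.06), Cebpa (−1.89), Egln3 (−1.65), Egln1 (−1.50), Zfp36 (−1.49), App (−1.48) and Hjv (−1.40). In B6129SF2/J these were Cpox (1.51) and Cisd2 (1.01).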

How the results depend on the processing

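For each member and line the isoproterenol difference was recomputed under 312 combinations of member, line and alternative, of which 305 moved by less than the spread between arrays and 7 by more, the latter on other probe sets of Slc11a2 and Cp. None of the called differences reversed. Counts of listed iron genes depended more on the processing: of 140, 58 moved by over 1.5 times. The cause was not tested. Shares of all genes past the threshold under each alternative are not given here. A change in these counts is therefore not read as particular to iron genes. After quantile normalization the treatment counts were 6 in FVB, 29 in C57BL/6 and 11 in B6129SF2/J, the differences from C57BL/6 gave 5 for FVB, 12 for B2KO and 12 for B6129SF2/J, and the untreated lines 24 for FVB and 14 for B6129SF2/J. With arrays centred on their genes these were 7 in FVB, 5 in B2KO and 13 in B6129SF2/J, then 6, 11 and 9, and 15 for untreated B6129SF2/J. Array weights gave 20 in FVB, 31 in C57BL/6, 13 in B2KO and 33 in B6129SF2/J, then 12, 16 and 22, and for untreated lines 23 for FVB minus C57BL/6 and 2 for B2KO minus FVB, while the iron genes that differ between untreated lines, B6129SF2/J minus C57BL/6, then numbered 26. The stricter filter gave 5 in B2KO and 0 for FVB minus C57BL/6, averaged probe sets gave 4 for B6129SF2/J minus C57BL/6, and both duplicates kept gave 5 in B2KO.

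Without the failed array the counts were 5 in FVB and 0 in B2KO, with 3 and 9 for the differences of FVB and B6129SF2/J from C57BL/6 and 12 for untreated B6129SF2/J. Without the 3 arrays they were 6, 0 and 10 in FVB, B2KO and B6129SF2/J, then 3, 4 and 10, and 12. Without the 8 arrays they were 6 in FVB, 31 in C57BL/6, 1 in B2KO and 14 in B6129SF2/J, then 8, 15 and 13, and 23 and 19 for untreated FVB and B6129SF2/J. Without the only female mouse, an alternative chosen after seeing the data, the differences of FVB and B6129SF2/J gave 2 and 4. Lines fitted alone gave 0 in B2KO and 28 in B6129SF2/J, then 2, 2 and 10, and 19 for untreated B6129SF2/J.

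Leaving out 1 array at a time gave 2 to 4 in FVB, 14 to 21 in C57BL/6, 0 to 8 in B2KO and 4 to 6 in B6129SF2/J. The differences from C57BL/6 gave 0 to 2 for FVB, 4 to 18 for B2KO and 1 to 5 for B6129SF2/J, and the untreated lines 11 to 16 for FVB, 0 for B2KO minus FVB and 4 to 7 for B6129SF2/J. The Hamp difference then ran from −1.81 to −1.61 in FVB, −2.17 to −1.90 in C57BL/6, −1.84 to −1.45 in B2KO and −1.12 to −0.82 in B6129SF2/J. With the replicate block (consensus correlation 0.00142) the counts were 2, 19, 3 and 6 for treatment, as without it, and no other count changed.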
